A study of Homo sapiens with 12 samples.

Results

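The lysosomal cathepsins are described here through 10 genes, CTSA, CTSB, CTSC, CTSD, CTSF, CTSH, CTSK, CTSL, CTSS and CTSZ. Every probe set (a group of array probes read together as 1 transcript value) whose symbol in the platform's gene table is one of these was taken. That gave 20 of the 49395 probe sets on the array, for 10 of 18132 genes. CTSB has 4 probe sets, CTSC and CTSD 3 each, CTSA, CTSH and CTSS 2 each, and CTSF, CTSK, CTSL and CTSZ 1 each. All 20 lay above the signal used as a filter, log2 4.48, the 30th percentile of probe set means.

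The RNA came from THP-1, an established human monocytic leukaemia line that becomes macrophage-like when given the phorbol ester PMA (100 ng/ml for 48 hours in the protocol). Affymetrix PrimeView arrays were run on 12 samples, 3 in each of 4 groups. In the temperature experiment, differentiated cells were held at 37 °C or at a fever-like 40 °C. The protocol harvests 40 °C cells at 2, 8 and 24 hours, and which of these the arrays hold is not stated. In the second experiment, cells titled siRNA and labelled siThermomir were compared with cells titled WT and labelled control. By the treatment protocol, such cells were differentiated at 40 °C and given a hairpin microRNA inhibitor and a GFP plasmid by nucleofection. GFP-positive cells were then sorted after 24 hours. The microRNA blocked in the arrayed cells is not named, nor is it stated whether the controls received the non-human control inhibitor. The siThermomir group is called the inhibitor group below. All groups are 1 cell line. Whether replicates are independent cultures is not stated, so each p-value reflects array-to-array spread that may be only technical.

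Cathepsins are proteases that work mainly in the acid interior of lysosomes, where they break down proteins taken up or turned over by the cell. Most are papain-like cysteine proteases, CTSD is an aspartic protease and CTSA a serine carboxypeptidase. They are made as inactive precursors, carried to lysosomes largely through mannose 6-phosphate receptors, and held in check outside them by cystatins. Macrophages are rich in them, and use them in digestion of engulfed material and in antigen processing. Many lysosomal genes carry an E-box with the core CACGTG near their start, which the transcription factors TFEB, TFE3 and MITF can bind.

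Promoters are shown because CACGTG is the core of that lysosomal element. The windows run from 250 bases before to 50 bases after the start of each gene, from RefSeq on GRCh38.p14, and 7 of the 10 genes have one (those of CTSB, CTSK and CTSS are not used here). CACGTG, which reads the same on both strands, was found in 3 of the 7, those of CTSA, CTSD and CTSF, and in 7.26% of all 35116 windows. The longer TCACGTGA, which contains CACGTG, was found in CTSA alone among the 7 and in 0.980% of all windows. In CTSA the sites begin 42 and 25 bases before the start, in CTSD 47 bases before it, and in CTSF 123 and 51 bases before it. The heat shock element was searched on both strands as 3 alternating blocks of GAA and TTC with 2 bases of any kind between them. It was in none of the 7 windows and in 0.490% of all. The windows with CACGTG are printed below 5′ to 3′ on the strand of the gene, with CACGTG in capitals, together with that of CTSZ, the gene with the largest difference. They lie at chr20:45891085-45891384 (plus strand) for CTSA, chr11:1763878-1764177 (minus) for CTSD, chr11:66568557-66568856 (minus) for CTSF and chr20:59007205-59007504 (minus) for CTSZ. A match describes these letters and does not show binding.
CTSA: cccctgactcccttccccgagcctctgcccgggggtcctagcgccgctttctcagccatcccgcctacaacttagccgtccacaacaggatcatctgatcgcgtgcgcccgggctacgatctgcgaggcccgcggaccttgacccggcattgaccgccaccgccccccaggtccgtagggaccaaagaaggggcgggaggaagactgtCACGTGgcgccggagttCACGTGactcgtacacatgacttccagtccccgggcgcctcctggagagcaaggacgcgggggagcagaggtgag
CTSD: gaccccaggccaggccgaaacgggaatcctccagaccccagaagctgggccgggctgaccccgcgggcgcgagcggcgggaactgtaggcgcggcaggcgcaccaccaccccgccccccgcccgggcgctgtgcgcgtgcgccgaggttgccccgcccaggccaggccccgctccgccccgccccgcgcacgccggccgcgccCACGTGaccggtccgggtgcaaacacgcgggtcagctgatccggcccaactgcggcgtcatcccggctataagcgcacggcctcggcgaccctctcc
CTSF: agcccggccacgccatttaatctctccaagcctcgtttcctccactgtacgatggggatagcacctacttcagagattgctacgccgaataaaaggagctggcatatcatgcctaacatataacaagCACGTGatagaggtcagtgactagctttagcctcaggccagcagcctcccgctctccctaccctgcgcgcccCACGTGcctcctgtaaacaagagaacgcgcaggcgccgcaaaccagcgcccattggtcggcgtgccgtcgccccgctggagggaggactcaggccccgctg
CTSZ: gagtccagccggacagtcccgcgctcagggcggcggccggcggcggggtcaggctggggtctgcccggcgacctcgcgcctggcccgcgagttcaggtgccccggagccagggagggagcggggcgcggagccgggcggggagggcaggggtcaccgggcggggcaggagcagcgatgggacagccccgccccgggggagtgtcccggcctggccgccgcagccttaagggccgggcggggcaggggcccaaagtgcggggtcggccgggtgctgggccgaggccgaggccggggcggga

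The arrays were alike in scale, with medians of log2 5.72 to 5.87. Pearson's r over probe sets was 0.994 to 0.998 between arrays of the same group. Between 37 °C and 40 °C arrays it was 0.993 to 0.994, and between control and inhibitor arrays 0.978 to 0.986. Markers of macrophages were present in every group: CD14, CD68, CSF1R and ITGAM lay above the filter signal throughout, while MRC1 lay below it. Poly-A spikes, bacterial RNAs added before labelling, averaged log2 7.68 ± 0.04 at 37 °C, 7.77 ± 0.04 at 40 °C, 7.07 ± 0.35 in controls and 5.83 ± 0.27 with the inhibitor (SD, n = 3 each). The spike level therefore differed between inhibitor and control arrays by much more than between temperatures. Spike level and group largely went together. Fits below that add the spike level as a covariate had wider SEs for the cathepsins and cannot separate it well from group.

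The first comparison asked how cathepsin transcripts differ in macrophage-like cells at 40 °C. Most rose. CTSD, the main aspartic protease of lysosomes, was 1.54-fold higher, CTSL, a cysteine endopeptidase, 1.49-fold, CTSB, a cysteine protease that trims peptides as well as cutting within them, 1.44-fold, and CTSC, the dipeptidyl peptidase that activates granule proteases, 1.42-fold. CTSK, best known as the collagen-cutting cathepsin of osteoclasts, fell by 0.38 on the log2 scale. Taking for each gene its brightest probe set, 6 of 10 rose and 1 fell (limma, Benjamini-Hochberg adjusted p under 0.05 over 13909 genes). Of all genes tested, 39.3% were called, 21.6% higher and 17.7% lower. The median log2 difference was 0.26 over the 10 cathepsins and 0.01 over all genes. Here and below a gene is read by its brightest probe set, and its other probe sets come from a fit of all 34507. In bulk RNA, fewer cells that express a gene and less of its RNA per cell cannot be told apart.

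The aspartic protease CTSD read log2 9.34, 9.31 and 9.26 on the 37 °C arrays and 9.93, 9.90 and 9.95 on the 40 °C arrays. The groups were far apart for their spread, and the difference was 0.62 (SE 0.04, adjusted p = 3.98e-05). Of its 3 probe sets, the others gave 0.62 and 0.63 and were called too.

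Among the cysteine endopeptidases, CTSL read 11.92, 11.88 and 11.89 at 37 °C and 12.51, 12.45 and 12.47 at 40 °C. Every 40 °C array was above every 37 °C array, with a difference of 0.58 (SE 0.04, adjusted p = 4.66e-05). CTSB read 12.52, 12.53 and 12.57 at 37 °C and 13.09, 12.99 and 13.12 at 40 °C, a difference of 0.53 (SE 0.05, adjusted p = 0.000139). All 4 CTSB probe sets were called higher, but by unequal amounts: 0.53 and 0.57 for the brighter pair, 0.82 for 11754977_x_at and 1.36 for 11716716_x_at, the last of these 2.57-fold. The size of the CTSB difference thus depended on the probe set read, while its direction did not.

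CTSS, which stays active at neutral pH and cuts the invariant chain of MHC class II, read 11.78, 11.61 and 11.87 at 37 °C and 11.86, 11.86 and 11.97 at 40 °C. Its groups overlapped, and the difference of 0.14 (95% interval −0.02 to 0.31, adjusted p = 0.162) did not pass. The fainter CTSS probe set gave 0.10 and did not pass either. CTSK read 7.26, 7.45 and 7.20 at 37 °C and 6.99, 6.74 and 7.05 at 40 °C. All 40 °C arrays lay below all 37 °C arrays, and the difference of −0.38 (SE 0.10, adjusted p = 0.0149) was called. CTSF, a cysteine protease with a long propeptide, read 5.22, 5.26 and 5.41 at 37 °C and 5.13, 5.10 and 5.18 at 40 °C, close to the filter signal. Its groups did not overlap, but the difference of −0.16 was not called (adjusted p = 0.0682).

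The exopeptidases, which trim protein ends, divided. CTSC read 12.07, 12.09 and 12.05 at 37 °C and 12.64, 12.55 and 12.55 at 40 °C, a difference of 0.51 (SE 0.05, adjusted p = 0.000111). Its second probe set rose by 0.91, while the faintest, 11731465_a_at, differed by 0.04 (95% interval −0.15 to 0.22) and was not called. CTSH, an aminopeptidase, read 11.44, 11.49 and 11.45 against 11.80, 11.77 and 11.73, higher by 0.31 at 40 °C (SE 0.04, adjusted p = 0.000983). A faint CTSH probe set, with a mean of 4.89, differed by 0.09 and was not called. CTSZ, a carboxypeptidase that removes single residues, read 10.60, 10.61 and 10.71 at 37 °C and 10.56, 11.01 and 10.59 at 40 °C. The arrays overlapped, the difference was 0.08 (95% interval −0.18 to 0.34, adjusted p = 0.634), and without replicate 2 at 40 °C it was −0.065. CTSA, the serine carboxypeptidase that also protects the enzymes NEU1 and GLB1, read 11.22, 11.21 and 11.15 against 11.43, 11.38 and 11.38, higher by 0.20 (SE 0.04, adjusted p = 0.00787). Its other probe set gave 0.17 and was not called (adjusted p = 0.0575).

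Groups did not overlap for 8 of the 10 genes, against 49.5% of all genes tested. Over the 20 probe sets, 12 were called higher and 1 lower, where 19.8% and 17.5% of 34507 probe sets were, 37.3% in all. None of the 7 gene calls was lost by leaving out any 1 array. With the spike level as a covariate 5 genes were called higher and none lower. CTSA, CTSH and CTSK gave 0.17, 0.25 and −0.40, with SEs of 0.08, 0.07 and 0.17. They no longer passed (adjusted p = 0.168, 0.0541 and 0.160), and CTSS was called higher (0.37, adjusted p = 0.0221).

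**Figure D1:**
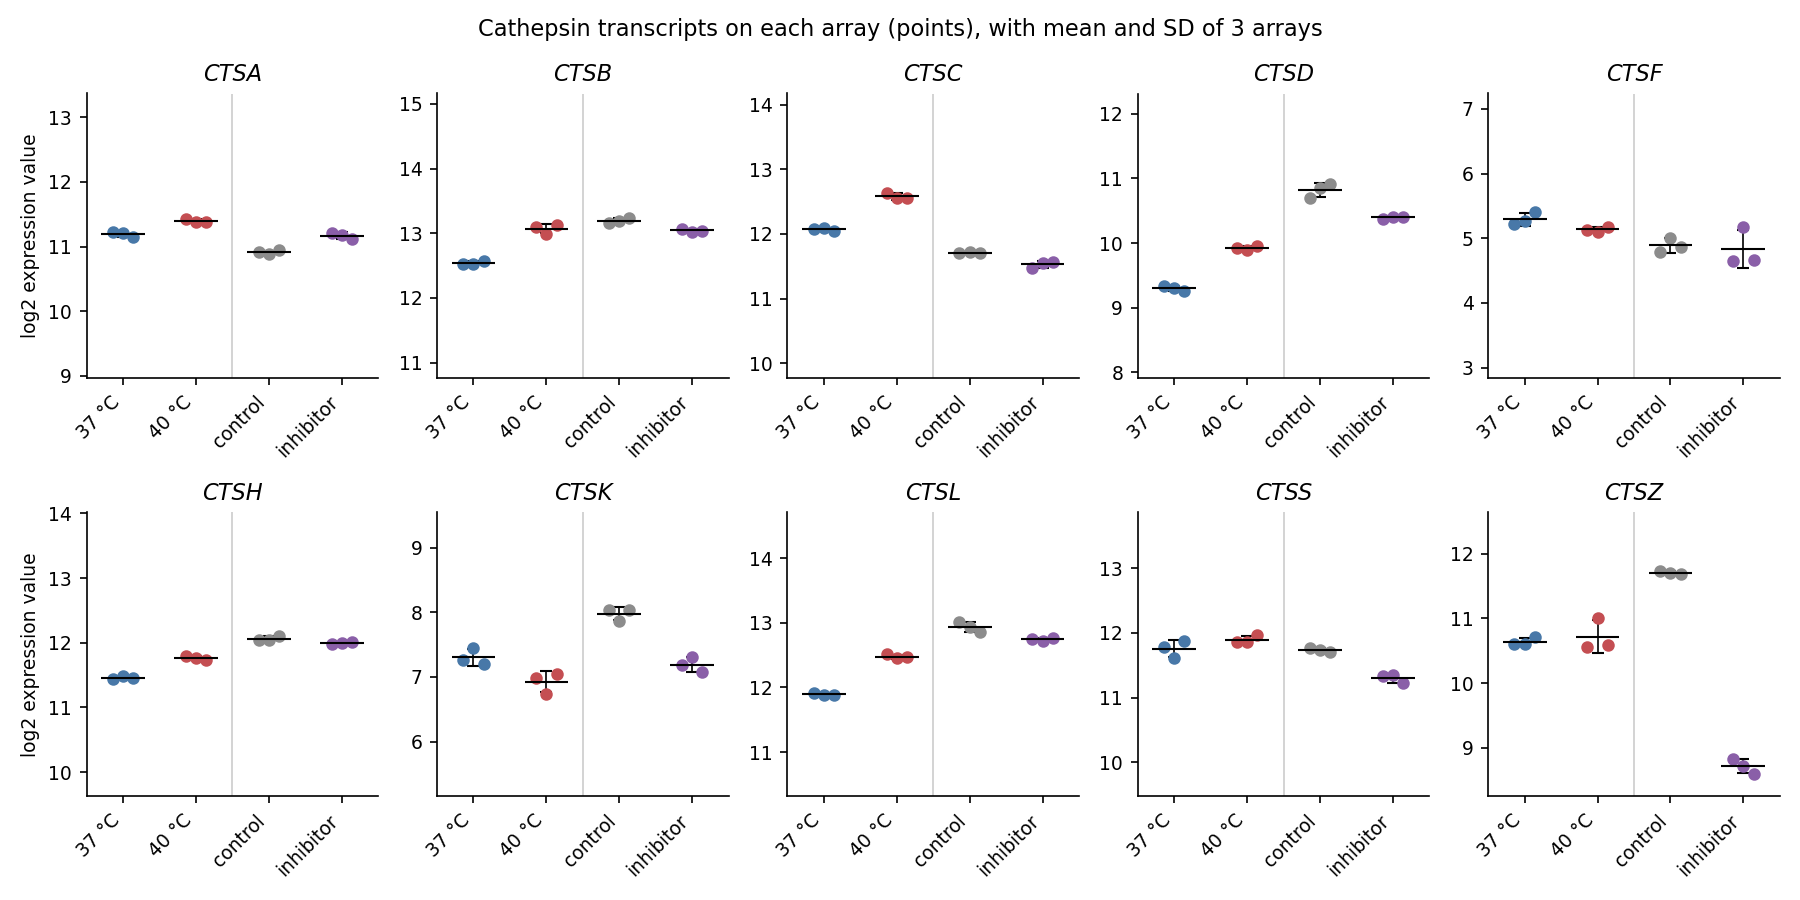
Log2 expression value of each cathepsin on each of the 12 arrays (points), by group, with the mean (line) and SD (bar) of 3 arrays; every panel spans the same log2 range, and the grey line separates the experiments. CTSD, CTSL, CTSB and CTSC sit higher at 40 °C than at 37 °C, and CTSZ falls from about 11.71 in controls to 8.71 with the inhibitor.

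The second comparison asked how the cathepsins differ when a thermomiR is blocked. CTSZ fell 7.98-fold, the largest difference of any cathepsin in either experiment. CTSK was 1.73-fold, CTSS 1.35-fold and CTSD 1.34-fold lower, CTSL and CTSC fell by less, and CTSA was 1.19-fold higher. By the brightest probe set, 6 of 10 genes were called lower and 1 higher, whereas 19.6% and 25.7% of all 13909 genes were, 45.2% in all. The median log2 difference was −0.19 over the cathepsins and 0.09 over all genes. The direction for CTSC, CTSS and CTSA depended on the probe set read, as given below.

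CTSZ read log2 11.73, 11.71 and 11.69 in controls and 8.82, 8.72 and 8.60 with the inhibitor. Each group was tight (SD 0.02 and 0.11, n = 3) and the groups lay far apart, with a difference of −3.00 (SE 0.07, 95% interval −3.16 to −2.83, adjusted p = 1.3e-06). Of 13909 genes, 4 had a lower difference than CTSZ, namely IFI27 (−3.47), PRTN3 (−3.46), MNDA (−3.46) and MLPH (−3.15), which were looked up after the values were seen. CTSZ has 1 probe set on the array, so no other probe set bears on the value. It was the 1 cathepsin still called with the spike level as a covariate (−2.84, SE 0.20, adjusted p = 0.00887).

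CTSK read 8.03, 7.87 and 8.04 in controls and 7.19, 7.31 and 7.07 with the inhibitor. The difference of −0.79 (SE 0.08, adjusted p = 0.00029) placed it lower on every array. CTSD read 10.70, 10.85 and 10.92 in controls and 10.38, 10.41 and 10.41 with the inhibitor, a difference of −0.42 (SE 0.07, adjusted p = 0.0023). All 3 CTSD probe sets were called lower, by 0.39 to 0.42. CTSD and CTSK were thus lower without overlap. With the spike covariate the differences were −0.35 (SE 0.21, adjusted p = 0.427) and −0.81 (SE 0.24, adjusted p = 0.151), and neither passed. Those SEs were wider than the 0.07 and 0.08 without the covariate. The spike level largely went with group, so this fit cannot separate them, and why the calls were lost was not tested.

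CTSS read 11.76, 11.74 and 11.70 in controls and 11.33, 11.35 and 11.22 with the inhibitor on its brighter probe set, 11749589_x_at, a difference of −0.43 (SE 0.06, adjusted p = 0.00105). On the other, 11719554_at, it read 10.87, 10.83 and 10.87 against 11.02, 11.00 and 11.05, a difference of 0.17 (SE 0.06) that was not called (adjusted p = 0.0619). The differences of the CTSS probe sets thus had opposite signs, and the mean of both, −0.13, was not called (adjusted p = 0.0763). CTSL read 13.01, 12.94 and 12.86 in controls and 12.75, 12.72 and 12.76 with the inhibitor, a difference of −0.19 (SE 0.06, adjusted p = 0.0358). That call was narrow, and leaving out any 1 of 5 arrays ended it (replicates 1 and 2 of the controls and each inhibitor array, adjusted p = 0.0642 to 0.119).

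CTSB read 13.16, 13.19 and 13.23 in controls and 13.07, 13.02 and 13.04 with the inhibitor. Its groups did not overlap, but the difference of −0.15 (SE 0.05, adjusted p = 0.0585) was not called. Of its 4 probe sets, 11754977_x_at was called lower (−0.23, adjusted p = 0.0326), a call that 5 of the 6 fits without 1 array lost, and the others differed by −0.22 to −0.08. CTSH differed by −0.07 (95% interval −0.19 to 0.06, adjusted p = 0.35) and CTSF by −0.06 (95% interval −0.40 to 0.28, adjusted p = 0.755). CTSF varied most among inhibitor arrays, at 4.65, 5.17 and 4.67, against 4.79, 5.01 and 4.87 in controls.

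The 3 CTSC probe sets did not go together. The brightest, 11715710_s_at, read 11.71, 11.72 and 11.70 in controls and 11.47, 11.55 and 11.57 with the inhibitor, a difference of −0.18 (SE 0.06, adjusted p = 0.0342 in the fit of genes). The call was lost without any 1 control array or without inhibitor replicate 1 (adjusted p = 0.0871 to 0.12). The second, 11731466_a_at, gave 0.16 and was not called (adjusted p = 0.105). The faintest, 11731465_a_at, read 6.26, 5.89 and 6.30 in controls and 6.95, 7.26 and 7.05 with the inhibitor, 1.91-fold higher (0.94, SE 0.13, adjusted p = 0.00102). The mean of the 3 was higher by 0.31 and called (adjusted p = 0.00497), so the direction for CTSC is not settled by these probe sets. CTSA read 10.91, 10.89 and 10.94 in controls and 11.21, 11.18 and 11.11 with the inhibitor, a difference of 0.25 (SE 0.06, adjusted p = 0.00881). Its other probe set, 11748622_s_at, differed by −0.01 (95% interval −0.16 to 0.13). The mean of both, 0.12, was not called (adjusted p = 0.113).

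Inhibitor and control arrays did not overlap for 9 of 10 genes, against 54.1% of all genes tested. In the fit of probe sets, 2 were called higher and 7 lower of 20, where 21.3% and 21.8% of all were, 43.1% in all. Adding the spike level to the model left 1 gene called lower and none higher, and over all genes 52 were higher and 184 lower. The part of the spike difference in these results was not tested beyond that fit.

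**Figure D2:**
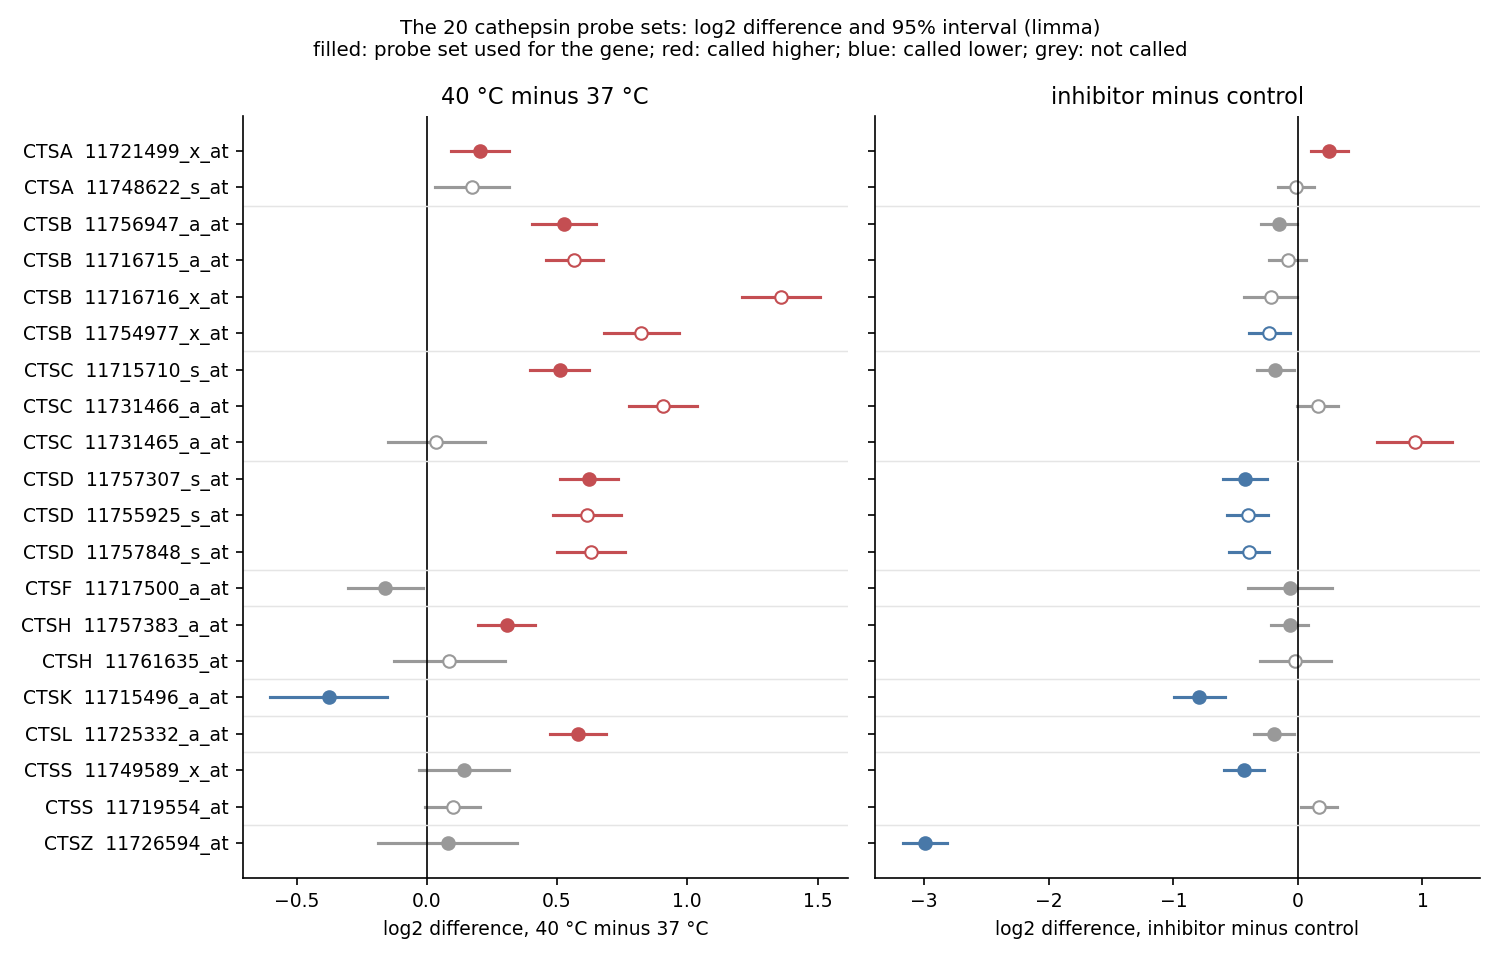
Log2 difference (point) and 95% interval (line) of each of the 20 cathepsin probe sets in the fit of all probe sets, for 40 °C minus 37 °C and for inhibitor minus control. All 4 CTSB and all 3 CTSD probe sets are called higher at 40 °C, the CTSC and CTSS probe sets lie on both sides of 0 with the inhibitor, and the axes of the panels differ; CTSC and CTSL, called lower in the fit of genes, are grey in this fit (adjusted p = 0.0544 and 0.0530).

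Among all 13909 genes, 4 cathepsins lay near the upper end at 40 °C. The log2 difference of CTSD was above that of 97.6% of genes, CTSL above 97.0%, CTSB above 96.2% and CTSC above 95.9%. None of them reached 2-fold by its brightest probe set, a size that 0.525% of genes passed upward with a call. With the inhibitor the same 4 genes lay above 11.5%, 21.4%, 24.0% and 22.2% of genes. CTSZ was called and at least 2-fold lower, as were 2.70% of genes.

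**Figure D3:**
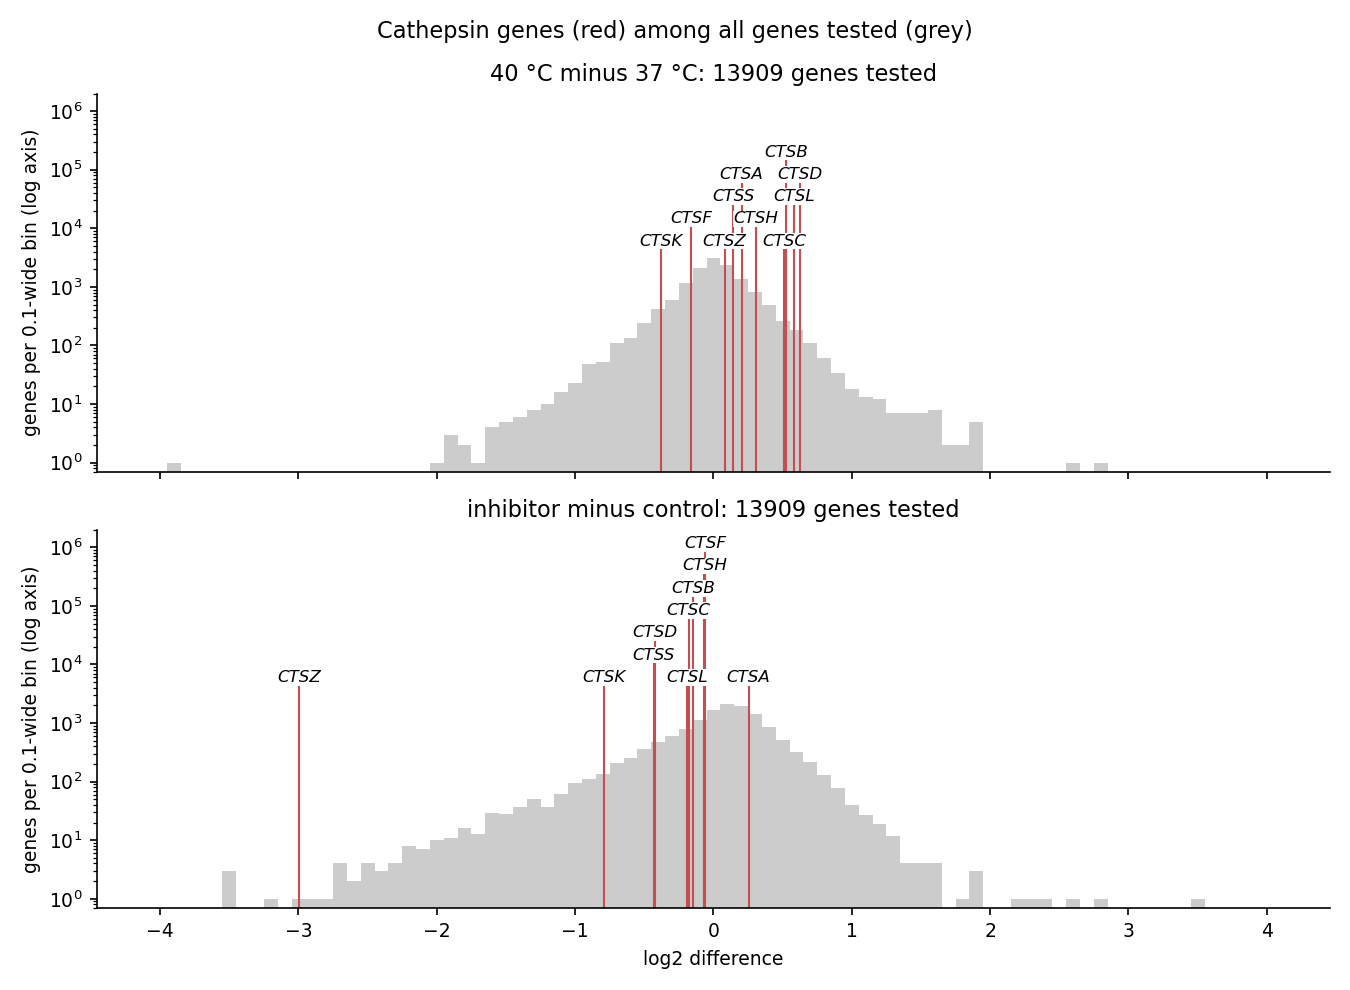
Histogram of the log2 differences of all 13909 genes (grey, log axis of gene number) with each cathepsin marked (red), for 40 °C minus 37 °C and for inhibitor minus control; line heights only separate the names. At 40 °C the cathepsins span −0.38 to 0.62, and with the inhibitor CTSZ stands at −3.00 while the others span −0.79 to 0.25.

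The temperature and inhibitor experiments share no arrays, so the difference between their effects could be tested over all 12 arrays. The inhibitor effect was below the temperature effect for 8 of the 10 genes and above it for none (limma, adjusted p under 0.05), where 21.1% and 23.1% of all genes were, 44.2% in all. The difference was −3.08 for CTSZ (SE 0.15, adjusted p = 2.94e-08), −1.05 for CTSD (SE 0.08, adjusted p = 1.01e-06), −0.77 for CTSL, −0.69 for CTSC, −0.68 for CTSB, −0.58 for CTSS, −0.41 for CTSK and −0.37 for CTSH. CTSA, called higher in both experiments by its brightest probe set only, gave 0.05 (95% interval −0.09 to 0.19), and CTSF 0.10 (95% interval −0.27 to 0.47). With the spike covariate 5 were called, and CTSH (adjusted p = 0.0643), CTSK (0.388) and CTSS (0.142) were not. For CTSC, CTSS and CTSA the sign followed the probe set, with 0.90, 0.067 and −0.19 on the most variable one. The CTSA difference was called on neither of its probe sets (adjusted p = 0.0957 on the most variable). Averaging the CTSC probe sets gave −0.18, which was not called (adjusted p = 0.0635). The CTSK call was lost in 7 of the 12 fits that left out 1 array (control replicate 1 or 3, inhibitor replicate 3, or replicate 1 or 3 of either temperature), with differences of −0.51 to −0.35 over the 12.

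Levels across the 4 groups also differed between the experiments. Control cells of the inhibitor experiment and cells at 40 °C differed for 9 of 10 genes, 5 higher and 4 lower in controls, in a comparison where 74.8% of all genes were called (36.9% higher and 37.9% lower). Nucleofection, sorting, harvest and array run cannot be told apart here, and these values share arrays with both comparisons above. CTSK was 2.08-fold, CTSZ 1.99-fold, CTSD 1.86-fold, CTSL 1.38-fold and CTSH 1.23-fold higher in controls. CTSC was 1.83-fold, CTSA 1.40-fold, CTSF 1.19-fold and CTSS 1.12-fold lower, and CTSB differed by 0.13 and was not called. The CTSS call was lost without control replicate 3 or 40 °C replicate 3. With the spike covariate CTSF (−0.039, adjusted p = 0.762), CTSS (−0.17, adjusted p = 0.206) and CTSH (0.27, adjusted p = 0.0508) were not called. Nor were CTSF with all 12 arrays in 1 fit (adjusted p = 0.0803), CTSS after quantile normalization (adjusted p = 0.116) and CTSH with its probe sets averaged (adjusted p = 0.0700). Arrays did not overlap for any of the 10 genes, nor for 76.7% of all genes.

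Read by the brightest probe set, the order of the groups fell into a few patterns. Other probe sets of some genes gave another order. CTSD, CTSL and CTSH were highest in controls, then with the inhibitor, then at 40 °C and lowest at 37 °C, and no neighbouring groups overlapped. For CTSD the means were 10.82, 10.40, 9.93 and 9.30. CTSB was likewise highest in controls and lowest at 37 °C (13.19 and 12.54), but its 40 °C and inhibitor arrays overlapped. Its probe set 11754977_x_at was instead highest at 40 °C (11.63, against 11.08 in controls). CTSZ ran from controls (11.71) through 40 °C and 37 °C, which overlapped (10.72 and 10.64), to the inhibitor (8.71). CTSK ran from controls (7.98) through 37 °C and inhibitor, which overlapped (7.30 and 7.19), to 40 °C (6.93).

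CTSC and CTSA were highest at 40 °C. CTSC was next at 37 °C (12.07), then in controls (11.71) and with the inhibitor (11.53), with no overlap between neighbours. On its fainter probe sets, 11731466_a_at and 11731465_a_at, controls were lowest (11.03 and 6.15, against 11.19 and 7.09 with the inhibitor). For CTSA the 37 °C and inhibitor arrays overlapped (11.19 and 11.17), and controls were lowest (10.91). On its other probe set, control and inhibitor arrays overlapped (10.48 and 10.47). CTSS at 37 °C (11.75) overlapped both 40 °C (11.90) and controls (11.73), which did not overlap each other. It was lowest with the inhibitor (11.30), but on 11719554_at controls were lowest (10.86, against 11.02 with the inhibitor). CTSF was highest at 37 °C (5.30), and its control and inhibitor arrays overlapped. Over all 12 arrays the profile of CTSH was closest to that of CTSL (r = 0.980) and that of CTSD to CTSH (r = 0.978). Within the 6 arrays of the inhibitor experiment those correlations were 0.526 and 0.896. The arrays fall into 4 groups, so these values describe mainly the group levels.

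Other genes of the pathway were taken from lists, which were drawn up with earlier results known. Their counts stand beside the shares of all genes called, 21.6% higher and 17.7% lower at 40 °C and 25.7% higher and 19.6% lower with the inhibitor. Of the cystatins, protein inhibitors of cysteine cathepsins, 6 of 9 were tested. At 40 °C CSTB was 1.20-fold higher and CSTA 1.62-fold lower, and with the inhibitor CSTA was 2.37-fold and CSTB 1.13-fold lower while CST7 was 1.57-fold higher. Of other genes named cathepsin, CTSO was 1.61-fold and the granule serine protease CTSG 1.35-fold lower at 40 °C, and CTSV, a close relative of CTSL, 1.31-fold higher. With the inhibitor CTSV was 2.38-fold and CTSG 2.06-fold lower.

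Among 7 tested partners and processing genes, 4 rose and 1 fell at 40 °C. NEU1, the sialidase that forms a complex with CTSA, was 1.62-fold higher (0.70, SE 0.04), the peptidase TPP1 1.19-fold, GRN, whose product is cut into granulins in lysosomes, 1.13-fold, and PSAP, the precursor of saposins, 1.11-fold. CD74, the invariant chain, differed by −0.22 and was called lower. With the inhibitor 3 were higher (GRN 1.21-fold, TPP1 1.19-fold, CD74 1.18-fold) and GLB1, the other enzyme of the CTSA complex, was 1.27-fold lower. LGMN, the asparaginyl protease that processes several cathepsins, differed by 0.02 in both comparisons and was called in neither.

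Of 10 genes of sorting to lysosomes, 6 rose at 40 °C and none fell, where 21.6% and 17.7% of all genes did. They included the adaptor GGA2 (1.54-fold), the mannose 6-phosphate receptor IGF2R (1.36-fold) and the subunits GNPTG (1.35-fold) and GNPTAB (1.18-fold) of the enzyme that adds the mannose 6-phosphate tag. With the inhibitor 6 were higher and 1 lower (25.7% and 19.6% of all genes), among them GGA3 (1.42-fold), NAGPA (1.34-fold), GGA1 (1.27-fold) and SCARB2 (1.17-fold). Of 12 lysosomal membrane genes, 3 rose at 40 °C, namely the cholesterol exporter NPC1 (1.64-fold), CD68 (1.17-fold) and the cystine carrier CTNS (1.14-fold), a share near the 21.6% of all genes. With the inhibitor 5 rose, including CLN3 (1.48-fold) and LAMP1 (1.44-fold), and 2 fell, LAPTM4A (1.54-fold) and CD68 (1.40-fold). LAMP3, also on the list, was not tested because its mean over all arrays lay below the filter. It read 6.04, 5.84 and 6.07 in controls and 3.91, 4.04 and 4.02 with the inhibitor.

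Acid hydrolases other than cathepsins went both ways at 40 °C, with 6 of 18 higher and 4 lower, where 21.6% and 17.7% of all genes were. GALNS was 1.80-fold and MANBA 1.47-fold higher, and FUCA1 1.65-fold and NAGLU 1.31-fold lower. With the inhibitor 10 were lower and 3 higher, against 19.6% and 25.7% of all genes, with FUCA1 2.59-fold, GALC 2.48-fold, LIPA 1.48-fold and GM2A 1.47-fold lower. The median log2 difference of these hydrolases was 0.07 at 40 °C and −0.32 with the inhibitor. Of 9 genes around the lysosomal transcription factors, 4 rose and 1 fell at 40 °C, against 21.6% and 17.7% of all genes. RRAGD was 1.60-fold, FLCN 1.55-fold and MITF 1.37-fold higher, and TFEC 1.34-fold lower. With the inhibitor 4 were higher and 3 lower, against 25.7% and 19.6% of all genes. FLCN was 2.63-fold and RRAGD 1.85-fold lower, and MTOR 1.71-fold and MITF 1.47-fold higher. TFEB itself differed by 0.13 at 40 °C (adjusted p = 0.174, not called) and by −0.43 with the inhibitor (adjusted p = 0.00126).

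**Figure D4:**
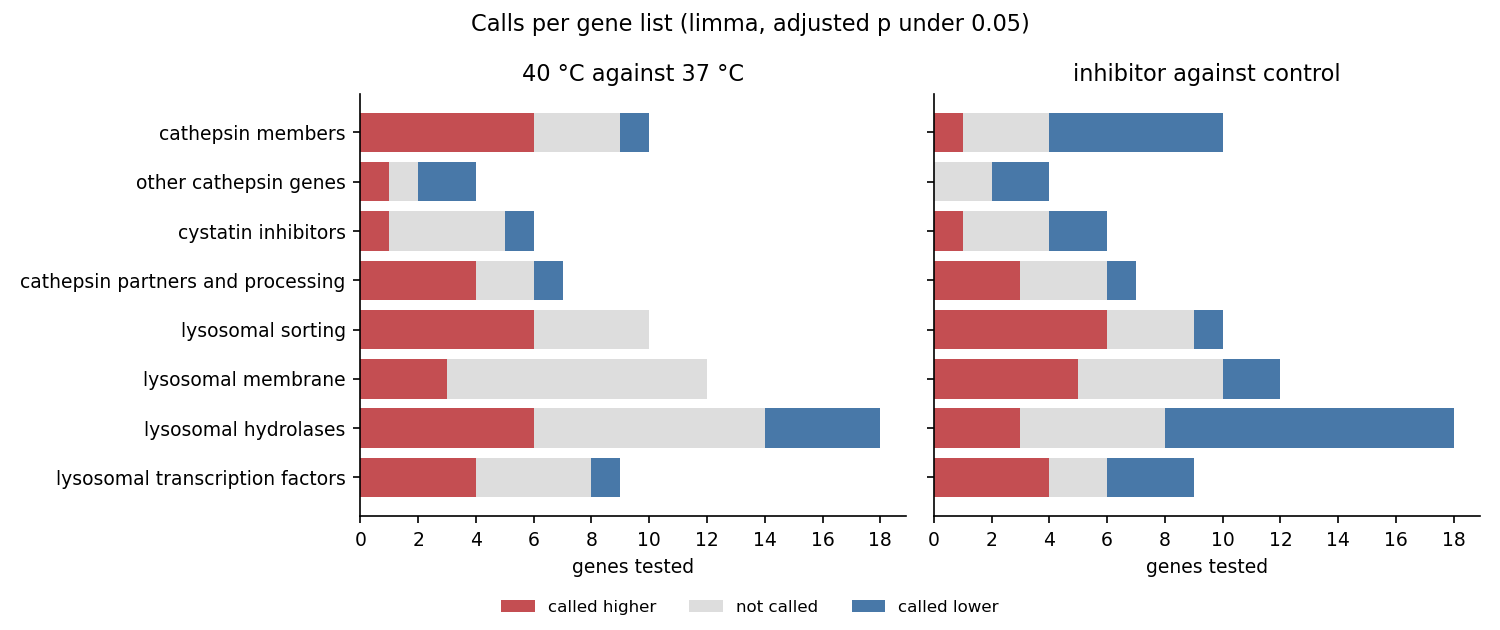
Number of tested genes of each list called higher (red), not called (grey) and called lower (blue), for 40 °C against 37 °C and for inhibitor against control (limma, adjusted p under 0.05). The cathepsins have 6 genes higher and 1 lower at 40 °C and 1 higher and 6 lower with the inhibitor, and the other hydrolases 6 and 4, then 3 and 10.

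Markers of myeloid state moved in the same comparisons. Of 10 tested macrophage markers, 7 were higher and 1 lower at 40 °C, where 21.6% and 17.7% of all genes were. With the inhibitor 1 was higher and 5 lower, against 25.7% and 19.6% of all genes. The log2 of their summed signal was 13.14 to 13.16 at 37 °C, 13.33 to 13.43 at 40 °C, 13.71 to 13.76 in controls and 13.07 to 13.12 with the inhibitor. At 40 °C CD163 was 1.95-fold higher and LYZ 1.22-fold lower. With the inhibitor LYZ was 5.07-fold, FCGR1A 2.76-fold, CD14 1.73-fold and ITGAM 1.69-fold lower. CSF1R was the 1 called higher (1.21-fold, adjusted p = 0.00949), and CD163, MARCO, SPI1 and CD4 were not called. All 6 tested markers of promyelocytes and neutrophils were lower in each comparison, where 17.7% and 19.6% of all genes were. MPO, CEACAM8 and LTF were not tested. Summed signals were 11.72 to 11.77, 11.00 to 11.07, 10.90 to 11.03 and 9.22 to 9.41 in the same order of groups. The near sums at 40 °C and in controls held opposite differences, with 4 of the 6 higher and 2 lower in controls. Of all genes, 36.9% were called higher and 37.9% lower in controls. S100A8 read 9.45 at 40 °C and 5.25 in controls and S100A9 9.48 and 5.86, while PRTN3 read 6.29 and 8.80 and ELANE 7.75 and 9.20.

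Most markers of other cell types were faint. NKG7 was not, with means of 6.55 at 37 °C, 6.72 at 40 °C, 6.49 in controls and 7.46 with the inhibitor. Lymphocyte markers summed to 7.81 to 8.05 in the temperature experiment and in controls and to 8.37 to 8.47 with the inhibitor, where NKG7 was 1.97-fold higher. Of 3 measured erythroid markers 1 was tested and not called. The 8 fibroblast and epithelial markers summed to 7.17 to 7.63, with KRT8 1.21-fold higher with the inhibitor. The part of these differences in the cathepsin values was not tested.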

How the data were processed

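Per the labels' protocols, total RNA was extracted with Trizol, biotin-labelled and hybridised to PrimeView arrays at a service centre. The authors deposited 1 table of log2 expression values for 49395 probe sets on 12 arrays. That they are log2 was taken from the values. How background was corrected and arrays normalized and summarised, and with which software, is not given in the sources used here. Precision is limited by 3 arrays per group, and 3 against 3 allow no exact permutation p below 0.1, so none was run per gene.

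Genes were represented by the probe set of exactly 1 symbol with the highest mean over all arrays, and 13909 genes, or 34507 probe sets, at or above log2 4.48 were tested. Each comparison was fitted alone with limma 3.58.1 in R 4.3.3 (lmFit, eBayes, two-sided) and no replicate block. P-values were adjusted by Benjamini-Hochberg over every feature tested, with a threshold of 0.05. Folds are linear ratios from log2 differences. Residual degrees of freedom were 4. The members and lists were chosen with earlier results of these data known. All members are named, and of each list up to 4 called genes per comparison by p. CD74 at 40 °C, LGMN and TFEB were added for their roles after their values were seen. LAMP3, CSF1R with the inhibitor and the levels of neutrophil markers in controls were also added after their values were seen. In the 13 lists, 117 of 129 genes have a probe set and 99 were tested. Others are not analysed here. Whether the same replicate number pairs arrays is not stated. Deviations of same-numbered arrays correlated at −0.60 to 0.23 and those of other pairs at −0.36 to 0.46. With 3 arrays per group these values cannot settle whether arrays are paired.

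Data were simulated from the real means and SDs of 13909 genes, with 50 genes changed by each size. Of those changed by 0.5, 84% were recovered for temperature and 52% for the inhibitor. At 0.25 it was 22% and 6%, with 8 and 4 false calls over all sizes. The simulated fits made 161 and 131 calls, the real ones 5472 and 6290. The adjusted p depends on the share of genes that change, so these rates do not describe the real fits. Alternatives were a joint fit, a replicate block, other filters, other probe set choices, quantile normalization, median centring, trend and robust eBayes, array weights, the mean of 24 poly-A spike probe sets as a covariate, and leaving out each array. Plots were drawn in matplotlib 3.10.9 (Python 3.11.15).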

Additional observations from a re-analysis of the deposited data

How the results depend on the processing

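The temperature calls, 6 cathepsins higher and 1 lower, held under most alternatives. The most variable probe set of each gene gave 4 higher. Leaving out each array gave 6 and 1 throughout, and averaging the probe sets of each gene added CTSF as a second lower gene (2 lower). The spike covariate left 0 lower at 40 °C, for genes and for probe sets alike, and turned CTSZ to −0.039; without 1 array, probe sets ranged from 12 to 13 higher and 0 to 1 lower (0 without replicate 2 at 37 °C) and CTSZ from −0.065 to 0.16. For CTSC 11731465_a_at the spike covariate gave −0.17 and leaving out arrays −0.033 to 0.090, and the faint CTSH probe set gave −0.018 with the covariate.

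The inhibitor counts, 1 higher and 6 lower, were less stable. With the replicate block 0 were higher and 4 lower (1 higher and 6 lower among probe sets), and CTSA was not called (adjusted p = 0.058). Whether the numbers pair the arrays is not stated. The block changed no other count of cathepsins by more than 1.5 times. The most variable probe set left 3 lower and turned CTSA to −0.013, CTSC to 0.94 and CTSS to 0.17, and the mean of probe sets turned CTSC to 0.31. The spike covariate left 0 higher and 1 lower for genes and for probe sets, and turned CTSF to 0.45. Leaving out arrays gave 1 higher and 4 to 5 lower, with CTSF at −0.23 to 0.03. Among probe sets, 4 were higher and 11 lower with all 12 arrays in 1 fit, 4 and 12 with trend and robust eBayes, 4 and 13 with array weights, and 4 higher with quantile normalization, which turned CTSA 11748622_s_at to 0.028. Leaving out arrays gave 1 to 2 higher (1 without control replicate 2 or inhibitor replicate 1) and 6 to 7 lower, CTSA 11748622_s_at at −0.033 to 0.0017 and the faint CTSH probe set at −0.11 to 0.092; array weights gave the latter 0.11.

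In the difference of effects the spike covariate left 5 genes lower and the most variable probe set added 1 higher, turning CTSC to 0.90, CTSA to −0.19 and CTSS to 0.067. The mean of probe sets turned CTSA to −0.068 and array weights CTSF to −0.035. Leaving out arrays gave 7 to 8 lower and 0 higher, with CTSF at −0.07 to 0.19. Against 40 °C cells, controls had 5 higher and 3 to 4 lower without 1 array, 2 lower with the spike covariate, and CTSB at −0.0525 with the mean of probe sets. Over all genes, the spike covariate left 1220 higher and 1453 lower at 40 °C, and array weights called 5527 higher with the inhibitor. Where no construction of the alternative shows it, the cause was not tested.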
